A study of Mus musculus with 59 samples.

Results

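The Hnrnp genes encode heterogeneous nuclear ribonucleoproteins, and 7 of them were followed over the day in mouse cortex: Hnrnpdl, Hnrnpc, Hnrnpa0, Hnrnph1, Hnrnpl, Hnrnpll and Hnrnpu. They were taken by name from the 8 Hnrnp genes among the 4484 genes of the table analysed, and the eighth was Hnrnph2. The genes were chosen by family name with the 24 h rhythm of Hnrnpdl and Hnrnpc in these data already known, so the values over the day that led to their choice are a description, and calls of these rhythms are counted but support nothing. The tissue was homogenised medial prefrontal cortex, from adults of the inbred strain C57BL/6J with the wild-type genotype. Males and females were each killed at zeitgeber times ZT2, ZT6, ZT10, ZT14, ZT18 and ZT22, that is every 4 h over 24 h. The 59 libraries formed 12 groups of time by sex, of 5 libraries each, or 4 in ZT10 females. By convention ZT0 is the time of lights on, and ZT12 to ZT24 is the dark phase in what follows, while the labels give no light schedule, no exact age and no count of mice.

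Heterogeneous nuclear ribonucleoproteins coat new transcripts in the nucleus and help to set how they are spliced, polyadenylated, exported and degraded. Several of them bind their own transcripts and include or skip exons that send the RNA to nonsense-mediated decay, so that the protein holds its own level. In neurons, RNA-binding proteins of this kind shape the exon choice of synaptic and channel genes. Homogenate cortex mixes neurons and glia, and in such bulk tissue fewer cells of a type and less RNA per cell cannot be told apart.

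The recovered reads per library numbered 6317420 to 13325019 (median 9015221), but 6 noncoding genes led by Gm42418 took 61.4% to 91.19% of them. That left 1009789 to 4253935 reads for all other genes. All 7 members passed the filter of 10 reads in 4 libraries, with a median per library between 363 reads for Hnrnpu and 1679 reads for Hnrnpc. The fewest reads of any member in any library were 143, for Hnrnpu. The excitatory neuron marker Slc17a7 was abundant, with 14.9 on the log2 scale, and markers of GABAergic neurons, astrocytes and microglia were also measured. None of the listed markers of endothelial cells, striatal neurons, blood or choroid plexus was among the genes analysed. Of the listed oligodendrocyte markers 1 of 5 was among them, and of those of their precursors 0 of 2. Absence of a marker there does not show that its cells were absent. The 11 libraries with serial numbers 49 to 60 scored higher on average than the other 48 on the first principal component of deviations from the group means. That component held 26.5% of the variance. Their mean score was 1.34 ± 0.328 (SD), against run means of -0.484 to 0.122 in the 4 earlier runs of 12 serial numbers, so results are also given by run. Single libraries overlapped: replicate 5 of the ZT18 females scored 0.742, and replicate 1 of the ZT2 females, from an earlier run, 1.29. The labels do not say what a run of serial numbers was.

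The members lie on 7 different chromosomes of the mouse build GRCm38. Hnrnpdl, the D-like member and a relative of the RNA decay factor Hnrnpd, is ENSMUSG00000029328 at chr5:100033577-100039664 on the minus strand. Hnrnpc, which binds uridine tracts in nascent RNA, is ENSMUSG00000060373 at chr14:52073377-52104028 on the minus strand. Hnrnpa0, a small member of the A/B group, is ENSMUSG00000007836 at chr13:58125879-58128556 on the minus strand. Hnrnph1, which binds runs of guanosine, is ENSMUSG00000007850 at chr11:50376990-50386528 on the plus strand. Hnrnpl, which binds CA repeats, is ENSMUSG00000015165 at chr7:28808541-28822266 on the plus strand. Its relative Hnrnpll, known for exon choice in lymphocytes, is ENSMUSG00000024095 at chr17:80029487-80062334 on the minus strand. Hnrnpu, a chromatin-associated scaffold protein, is ENSMUSG00000039630 at chr1:178321108-178337797 on the minus strand. Exons of Hnrnpu shared 804 bases (6.93% of its exonic sequence) with Cox20 on the other strand, and exons of Hnrnpl shared 32 bases with the antisense gene Gm44702. The strand setting of the counting is not given in the sources used here, so reads there may belong to either gene. Hnrnpdl and Hnrnpc each had 1 pseudogene copy at 95% identity or more over at least 200 bases, with longest matches of 324 and 905 bases, and their counts are uncertain to that extent.

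Promoter windows from RefSeq (GRCm38.p6), from 250 bases before to 50 bases after the annotated start, were available for 6 members, and Hnrnpll had no entry. They are shown for the pair of members with a called rhythm, Hnrnpdl and Hnrnpc, and for Hnrnpu, which had the smallest fitted amplitude. Each reads 5′ to 3′ on the gene's own strand, and capitals mark CpG dinucleotides. The windows are chr5:100039173-100039472 (minus strand) for Hnrnpdl, chr14:52103972-52104271 (minus strand) for Hnrnpc and chr1:178337766-178338065 (minus strand) for Hnrnpu. The Hnrnpdl window lies wholly within the gene as placed above, and so does the Hnrnpl window, chr7:28810640-28810939. The annotations thus differ on the start of both genes, and bases before their outermost start were not searched.
Hnrnpdl: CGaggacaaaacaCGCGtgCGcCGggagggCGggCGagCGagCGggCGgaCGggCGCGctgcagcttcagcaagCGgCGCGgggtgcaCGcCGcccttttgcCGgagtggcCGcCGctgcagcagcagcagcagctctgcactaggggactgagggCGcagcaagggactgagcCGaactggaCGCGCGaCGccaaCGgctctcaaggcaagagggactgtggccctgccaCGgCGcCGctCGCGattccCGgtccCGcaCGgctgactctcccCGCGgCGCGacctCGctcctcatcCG
Hnrnpc: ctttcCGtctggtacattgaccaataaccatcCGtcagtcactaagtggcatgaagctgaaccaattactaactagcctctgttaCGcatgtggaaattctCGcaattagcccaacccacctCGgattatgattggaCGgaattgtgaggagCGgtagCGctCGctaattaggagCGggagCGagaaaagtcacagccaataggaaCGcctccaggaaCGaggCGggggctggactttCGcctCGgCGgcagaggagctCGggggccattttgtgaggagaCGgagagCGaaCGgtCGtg
Hnrnpu: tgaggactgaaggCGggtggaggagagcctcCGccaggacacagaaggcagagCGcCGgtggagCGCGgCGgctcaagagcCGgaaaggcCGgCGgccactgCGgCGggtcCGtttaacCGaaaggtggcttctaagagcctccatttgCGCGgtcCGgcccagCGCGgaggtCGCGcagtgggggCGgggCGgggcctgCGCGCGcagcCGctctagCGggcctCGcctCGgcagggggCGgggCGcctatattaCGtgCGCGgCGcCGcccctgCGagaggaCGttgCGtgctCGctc
The Hnrnpdl window held 42 CpG at 72.7% GC and the Hnrnpu window 41 CpG at 72.7% GC, so these windows were alike in composition. The Hnrnpc window held 22 CpG at 54.3% GC. Over 32544 promoter windows the median was 7 CpG and 53% GC, and 96.9% of them held fewer CpG than Hnrnpdl and 76.7% fewer than Hnrnpc. Across the windows of the 6 members the count ran from 21 CpG in Hnrnpl to 52 in Hnrnpa0, all above that median. On both strands 6 motifs were searched: the E-box CACGTG of the clock factors, the full cAMP response element TGACGTCA, its shorter core TGACG (which the full element contains), the REV-ERB and ROR site AGGTCA, the D-box TTATGTAA and TATAAA. They occur in 7.17%, 1.8%, 20.9%, 16.2%, 0.931% and 13.6% of all windows, in that order. The windows of Hnrnpdl and Hnrnpu held none of these letters. Hnrnpc held 1 TGACG on the minus strand, at positions -218 to -214 from the start, Hnrnpa0 held 1 at -40 to -36 and Hnrnpl 1 at -35 to -31. Each of the 5 annotated starts of Hnrnph1 had TGACG within its window. The windows of starts 2 and 3 overlap and hold the same site, as do those of starts 4 and 5. The first of those starts also had AGGTCA at -188 to -183.

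Hnrnpc was the most abundant member, and Hnrnpu and Hnrnpll were the least abundant. Per kilobase of exon, on the log2 scale of scaled reads, Hnrnpc averaged 10.21 ± 0.14 (SD, n = 59 libraries for every member), Hnrnpl 9.52 ± 0.21 and Hnrnpa0 9.27 ± 0.23. Hnrnph1 followed with 9.23 ± 0.13, then Hnrnpdl with 8.61 ± 0.26, Hnrnpll with 6.95 ± 0.18 and Hnrnpu with 6.60 ± 0.42. The length used counts every annotated exon of a gene, 11.68 kb in Hnrnpll and 2.678 kb in Hnrnpa0, and these steps depend on it. Before division by length Hnrnpll averaged 10.5 and Hnrnpa0 10.69. Hnrnpa0 and Hnrnph1 did not differ beyond their spread, with a mean difference of 0.039 ± 0.28 (SD) and the first higher in 35 of 59 libraries. Hnrnpl was above Hnrnpa0 in 44 of 59 libraries by 0.24 ± 0.37, again within the spread. Hnrnpll was above Hnrnpu in 47 libraries by 0.36 ± 0.35. Hnrnpc was above Hnrnpl, and Hnrnpdl above Hnrnpll, in all 59 libraries, and Hnrnph1 was above Hnrnpdl in 57.

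**Figure D1:**
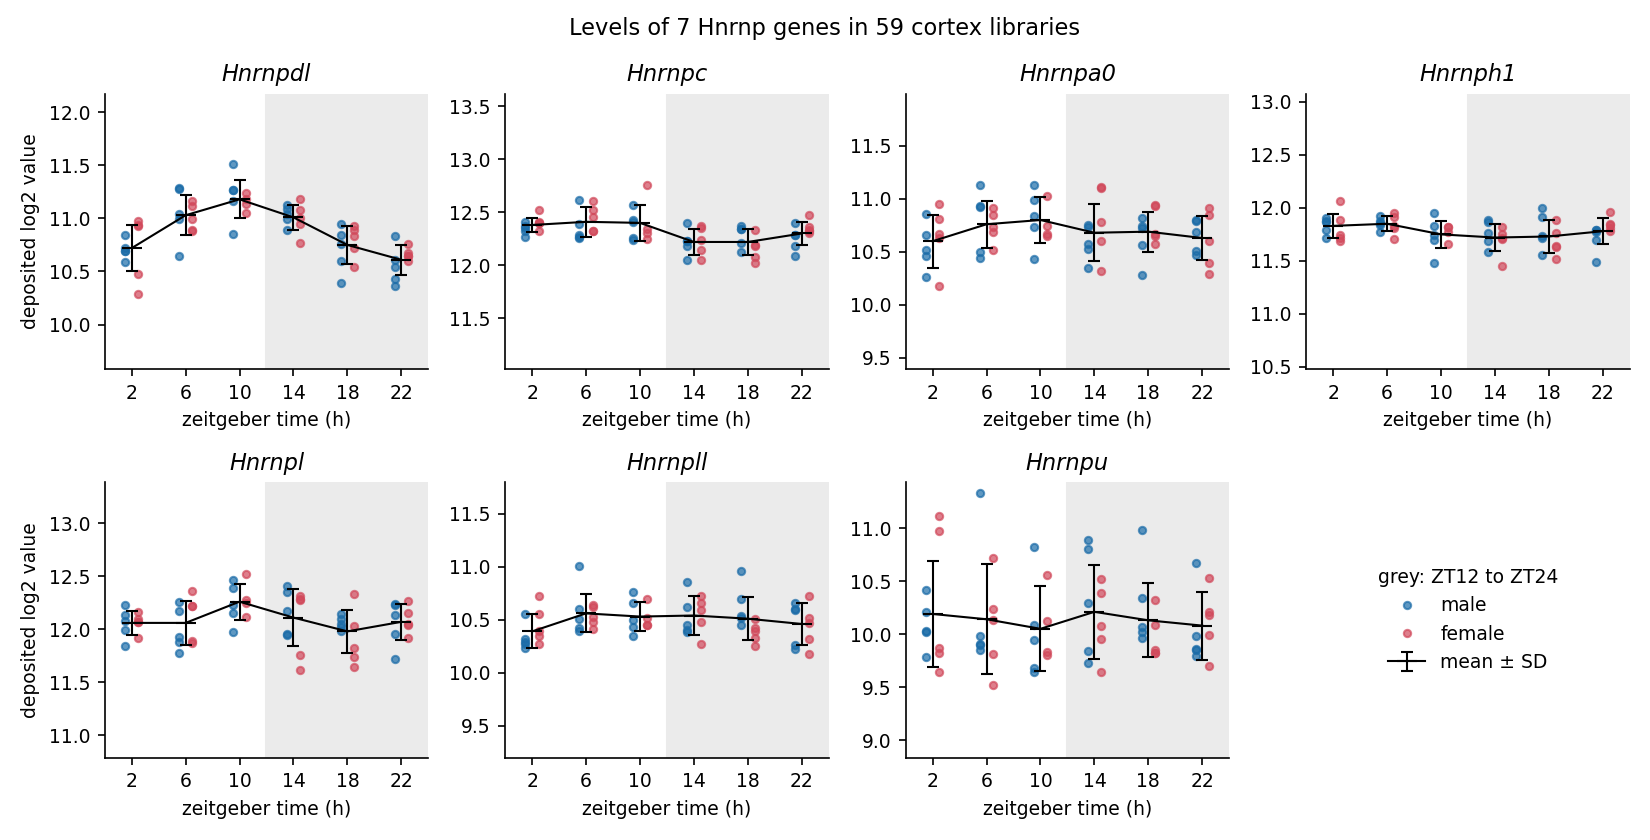
Deposited log2 value (y axis, not per kilobase) of each Hnrnp gene by zeitgeber time (x axis, h) in 59 libraries, with males as blue points left of females as red points. Black bars are the mean ± SD of each time, all panels span the same log2 range, and grey marks ZT12 to ZT24. Hnrnpdl stands highest at ZT10 (mean 11.18) and lowest at ZT22 (10.61), while single Hnrnpu libraries lie far above the rest at most times.

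Hnrnpdl had the widest daily course of the 7 genes. On the deposited log2 scale it averaged 10.72 ± 0.22 at ZT2, 11.03 ± 0.19 at ZT6, 11.18 ± 0.18 at ZT10, 11.01 ± 0.12 at ZT14, 10.75 ± 0.18 at ZT18 and 10.61 ± 0.14 at ZT22 (SD, n = 10 libraries a time and 9 at ZT10). At ZT10 males had 11.27, 11.27, 10.85, 11.16 and 11.51 and females 11.14, 11.18, 11.24 and 11.05. At ZT22 males had 10.43, 10.36, 10.54, 10.83 and 10.61 and females 10.67, 10.65, 10.65, 10.76 and 10.60. The lowest library at ZT10 (10.85) was thus just above the highest at ZT22 (10.83), and at the other 4 times the libraries ranged from 10.29 to 11.29. Hnrnpdl was 1 of 7 members without overlap between ZT10 and ZT22, where 4 of 4273 genes tested (0.0936%) had none. Those were the times of its own highest and lowest mean, in the libraries whose rhythm led to its choice. Nothing is read from this count. The fitted cosine had an amplitude of 0.29 ± 0.033 (SE) from the mean to the peak, a peak at ZT10.0 ± 0.43 h (SE) and a 1.49-fold step between trough and peak.

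The course of Hnrnpdl was also described by run of serial numbers and by sex, in the same libraries whose rhythm led to its choice. The amplitude in the runs was 0.31 ± 0.060, 0.34 ± 0.069, 0.26 ± 0.087, 0.20 ± 0.10 and 0.37 ± 0.064 (SE) in serial order. The peaks were at ZT10.2, ZT10.6, ZT9.31, ZT10.8 and ZT9.51. Hnrnpdl was not called in any run alone. Without serial numbers 49 to 60 the amplitude was 0.28 ± 0.037. Within the same run and sex, Hnrnpdl was higher at ZT10 than at ZT22 in 9 of 9 pairs, by 0.29 to 0.91 (median 0.53). ZT10 and ZT22 were the times of its highest and lowest mean in these same libraries. The run of serial numbers 37 to 48 had the smallest amplitude, and there both ZT22 libraries were above every other ZT22 library of their sex. In males the amplitude was 0.33 ± 0.049 with a peak at ZT9.93, and in females 0.24 ± 0.048 with a peak at ZT10.2. Of 81 genes with a called 24 h rhythm, Hnrnpdl had the 26th largest amplitude, and it was 7th of the 21 with a peak from ZT0 to ZT12. The share of noncoding reads did not follow it within groups (r = -0.042). With values scaled by library totals in place of the deposited scaling its amplitude was 0.25 ± 0.087 and it was no longer called. Lum, the 1 leptomeningeal marker measured of 2 listed, had a fitted peak at ZT10.6 with an amplitude of 0.31 ± 0.16 that did not pass the test (adjusted p = 0.717, limma). The part of such cells in the Hnrnpdl course was not tested.

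Hnrnpc was higher in the light phase by a small step. It averaged 12.38 ± 0.07 at ZT2, 12.41 ± 0.14 at ZT6, 12.40 ± 0.17 at ZT10, 12.22 ± 0.12 at ZT14, 12.22 ± 0.12 at ZT18 and 12.30 ± 0.11 at ZT22. The times overlapped: libraries ran from 12.26 to 12.62 (median 12.36) at ZT6 and from 12.02 to 12.37 (median 12.20) at ZT18. The fitted amplitude was 0.10 ± 0.026 with a peak at ZT5.34 ± 0.94 h and a 1.16-fold step between trough and peak. By run of serial numbers the amplitude was 0.14, 0.11, 0.095, 0.095 and 0.13, with peaks from ZT3.71 to ZT8.76. In males the amplitude was 0.073 ± 0.038 with a peak at ZT6.06, and in females 0.14 ± 0.041 with a peak at ZT4.96. Within groups Hnrnpc followed the noncoding share of reads (r = 0.503), with r = 0.418 in serial numbers 1 to 48 but -0.113 in 49 to 60. With that share as a covariate, a fit added after the data were seen, the amplitude of Hnrnpc was 0.10. The call of Hnrnpc ended without serial numbers 49 to 60, where the amplitude was 0.099, and without any 1 of 9 single libraries. It also ended with values scaled by library totals (amplitude 0.11) and by totals that leave out the noncoding genes (0.099).

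**Figure D2:**
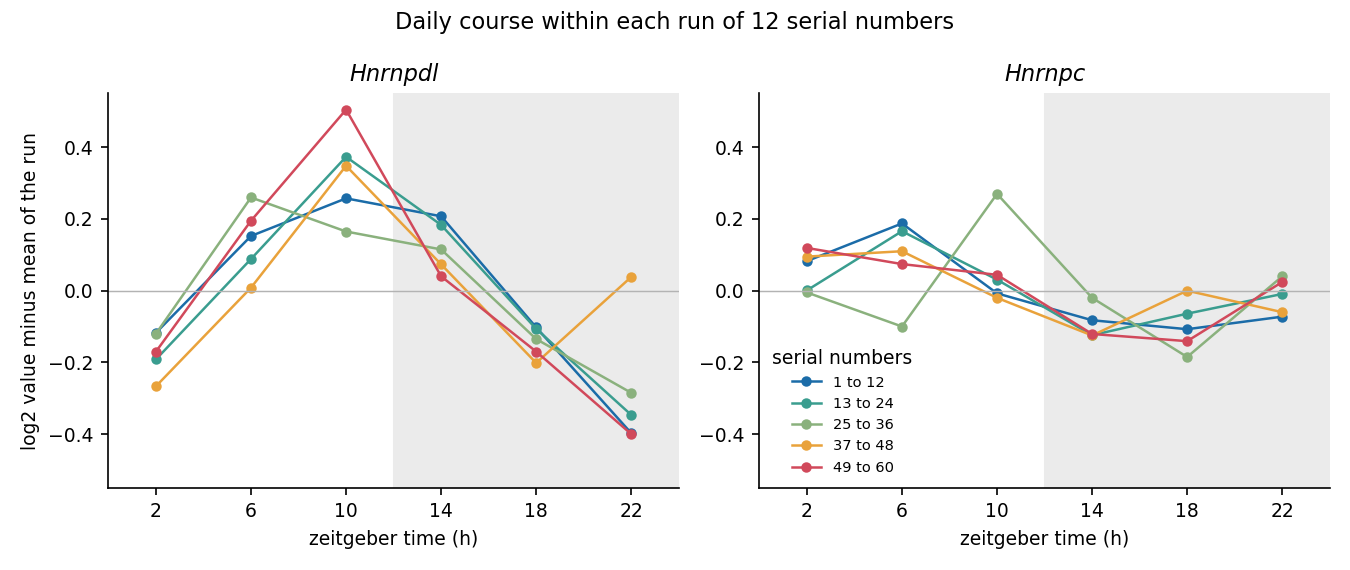
Log2 value of Hnrnpdl (left) and Hnrnpc (right) minus the mean of the run (y axis) by zeitgeber time (x axis, h), with 1 line for each run of 12 serial numbers and each point the mean of the male and female library, or the male alone at ZT10 in the last run. Hnrnpdl lies above its run mean at ZT10 in all 5 runs, and the Hnrnpc courses are flatter, with fitted amplitudes of 0.095 to 0.14.

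The other members had fitted amplitudes near the median of all genes or below it. Hnrnpa0, whose protein binds AU-rich elements, showed an amplitude of 0.083 ± 0.042, its peak at ZT10.1, and libraries ran from 10.43 to 11.13 at ZT10 against 10.29 to 10.91 at ZT22. Hnrnpl reached 0.081 ± 0.038, peaked at ZT9.70 and ran from 11.97 to 12.52 at ZT10 against 11.72 to 12.27 at ZT22. Its relative Hnrnpll had 0.067 ± 0.034 with a peak at ZT11.6 and ran from 10.35 to 10.76 at ZT10 against 10.18 to 10.72 at ZT22. In each of the 3 genes most libraries of both times overlapped. Hnrnph1 reached 0.063 ± 0.025, peaked at ZT3.62, and its means stayed between 11.72 and 11.85 at all 6 times. Hnrnpu had the smallest amplitude, 0.0034 ± 0.075, and no peak could be read from it. Its SE was the largest of the members, so a rhythm of Hnrnpu is the least well bounded. Within the same run and sex, Hnrnpl was higher at ZT10 than at ZT22 in 8 of 9 pairs, Hnrnpa0 in 7, Hnrnpc in 7, Hnrnpll in 6, Hnrnpu in 5 and Hnrnph1 in 3.

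Hnrnpdl and Hnrnpc were the 2 of 7 members whose 24 h rhythm was called (limma, adjusted p under 0.05 over 4273 genes), both with a peak in the light phase. Over all genes 81 were called, or 1.90%, of which 0.491% peaked from ZT0 to ZT12 and 1.40% from ZT12 to ZT24. Nothing is read from this comparison, because the rhythm was known when the members were proposed. The median amplitude of the 7 members was 0.081, against 0.076 over all genes tested. A fitted peak between ZT0 and ZT12 was found for 6 of the 7 members and for 50.6% of all genes tested.

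Males and females did not differ in any member past the threshold. Hnrnpdl ran from 10.36 to 11.51 (median 10.85) in 30 male libraries and from 10.29 to 11.24 (median 10.93) in 29 female libraries, and the other members overlapped as widely. The fitted differences farthest from 0 were those of Hnrnpa0 and Hnrnpu. Hnrnpa0 had a mean of 10.67 ± 0.23 in males and 10.71 ± 0.23 in females (SD), and a fitted male minus female difference of -0.049 with a 95% interval from -0.17 to 0.071. For Hnrnpdl the interval was -0.11 to 0.084, for Hnrnpc -0.10 to 0.045, for Hnrnph1 -0.069 to 0.077, for Hnrnpl -0.094 to 0.12 and for Hnrnpll -0.062 to 0.13. Hnrnpu had a mean of 10.16 ± 0.44 in males and 10.11 ± 0.40 in females, and a fitted difference of 0.048 with an interval from -0.17 to 0.27. No member was called (every adjusted p 0.9993, limma) and none had an unadjusted p under 0.05. Over all genes 1 was called (0.0234%), the X-linked RNA helicase gene Ddx3x, and 2.43% had an unadjusted p under 0.05. A difference in Hnrnpu is the least well bounded of the 7.

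The rhythm did not differ between the sexes in any member by the test of that difference. None of the 7 was called, as for all genes (0%), and none had an unadjusted p under 0.05 where 180 of 4273 genes had. For Hnrnpdl, with amplitudes of 0.33 in males and 0.24 in females, the adjusted p was 0.783 (limma, 59 libraries). A second rhythm of 12 h was not called in any member or in any gene (0%), and 291 genes but no member had an unadjusted p under 0.05. The largest 12 h amplitude among the members was 0.085 in Hnrnpl (adjusted p = 0.6245, limma). With samples every 4 h a 12 h rhythm rests on 3 times per cycle.

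Members also differed in how far single libraries departed from their group. Hnrnpu varied most, with an SD within groups of 0.446, more than 91% of the 200 genes nearest to it in level, whose median was 0.259. Hnrnph1 and Hnrnpc varied least, with 0.124 and 0.125, and only 6% and 10% of their own 200 neighbours varied less. Hnrnpdl (0.184), Hnrnpll (0.177) and Hnrnpl (0.202) lay below the median of genes of like level, and Hnrnpa0 (0.236) lay near it (0.24). Hnrnpu ran from 9.52 in 1 ZT6 female library to 11.33 in 1 ZT6 male library, a 3.5-fold range. By run of serial numbers Hnrnpu averaged 9.90, 10.29, 10.09, 10.50 and 9.87, so the run of serial numbers 37 to 48 was highest. Hnrnpl averaged 11.86 in the last run, against 12.02 to 12.20 in the earlier 4, and Hnrnpa0 averaged 10.89 in the last run, against 10.61 to 10.74.

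In some pairs of members these departures ran together or opposite to each other. Whether pairs of other genes do so as often was not tested. Over 59 libraries, deviations from the group means of Hnrnpdl and Hnrnpu ran opposite to each other, with Pearson's r = -0.746 and Spearman's rho = -0.676 (permutation within groups, 2-sided p = 1e-05 for each, the smallest that 100000 permutations can give, adjusted p = 0.00014 over 28 relations). Without the 2 libraries farthest from the median of the first measure, r was -0.678. Within serial numbers 1 to 48 r was -0.738, and within 49 to 60 it was -0.506. The libraries of highest Hnrnpu, such as 11.33 in a ZT6 male with Hnrnpdl at 10.65 and 11.11 in a ZT2 female with Hnrnpdl at 10.29, were thus low in Hnrnpdl for their group. These and replicate 3 of the ZT10 males, with Hnrnpu at 10.82, had the 3 lowest scores of all 59 libraries on the first principal component (-2.59, -2.06 and -2.09). Without the 3, a choice made after the data were seen, r was -0.611. The part of that component in the relation was not tested. Hnrnpu instead varied with Hnrnph1 (r = 0.545, rho = 0.602, adjusted p = 0.00028 and 0.000187, permutation). That r was 0.507 in serial numbers 1 to 48, 0.815 in 49 to 60 and 0.564 without the 2 libraries most extreme in Hnrnph1. With Hnrnpll the r of Hnrnpu was 0.572 and rho 0.501 (adjusted p = 0.00032 and 0.00098, permutation). Within serial numbers 49 to 60 that r was -0.167 and within the other 48 libraries 0.55. All values share the library and its scaling. Differences between runs were not removed from the relations over 59 libraries, and the permutations exchanged libraries between runs.

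The highest r of Hnrnpl was the one with the noncoding share of reads. It was 0.795 and rho 0.785 (permutation, adjusted p = 0.00014 for each). That r was 0.76 without the 2 libraries most extreme in Hnrnpl, 0.771 in serial numbers 1 to 48 and 0.404 in 49 to 60. Hnrnpa0 ran the other way, with r = -0.578 and rho = -0.564 (adjusted p = 0.00028 and 0.000607, permutation). That r was -0.55 without the 2 libraries most extreme in Hnrnpa0, -0.456 in serial numbers 1 to 48 and -0.51 in 49 to 60. Hnrnpc and Hnrnpl varied together (r = 0.615, rho = 0.598, adjusted p = 0.00028 for each, permutation). Their r was 0.606 without the 2 libraries most extreme in Hnrnpc and 0.549 in serial numbers 1 to 48, but -0.182 in 49 to 60. Of the 28 relations, 17 passed the threshold by Pearson's r. The share of such relations that pass among all genes was not computed, so the count is not read as a trait of the members. The part of RNA quality in them was not tested.

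**Figure D3:**
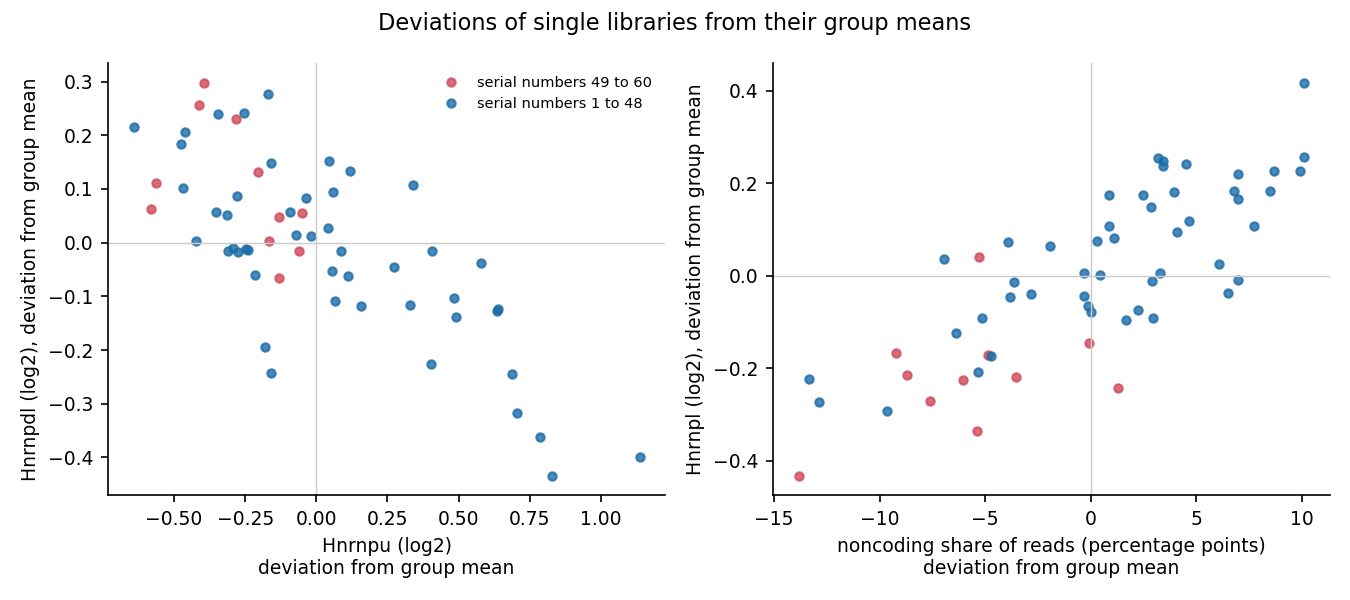
Deviations of single libraries from the mean of their group of time by sex: Hnrnpdl against Hnrnpu, both log2 (left), and Hnrnpl (log2) against the share of reads in 6 noncoding genes, in percentage points (right). Each point is 1 of 59 libraries, with serial numbers 49 to 60 in red. Hnrnpdl falls as Hnrnpu climbs (r = -0.746), and Hnrnpl climbs with the noncoding share (r = 0.795).

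Other RNA-binding protein genes were compared from lists that were also chosen with earlier results known. Hnrnph2, the 1 gene measured of 13 other Hnrnp genes listed, had an amplitude of 0.030 ± 0.038. The SR proteins, splicing activators that often act against hnRNP proteins at the same exons, had 4 of 13 genes tested and 3 called, 2 with a peak from ZT12 to ZT24 and 1 just after ZT0, where 1.90% of all genes tested were called. As the list was chosen with these rhythms known, the count is not independent evidence, and the values are a description. Tra2a reached 0.20 ± 0.042, its peak at ZT0.177. Srsf2 had 0.14 ± 0.030 with a peak at ZT21.5, and Srsf10 had 0.25 ± 0.062 with a peak at ZT20.2. Srsf7 was not called (0.12 ± 0.066). The Srsf10 call ended without serial numbers 49 to 60 (amplitude 0.25). Of 15 genes of nonsense-mediated decay 7 were tested and 0 were called with a median amplitude of 0.062. Smg6, the endonuclease of that pathway, came closest, with 0.10 ± 0.027 and a peak at ZT19.9.

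**Figure D4:**
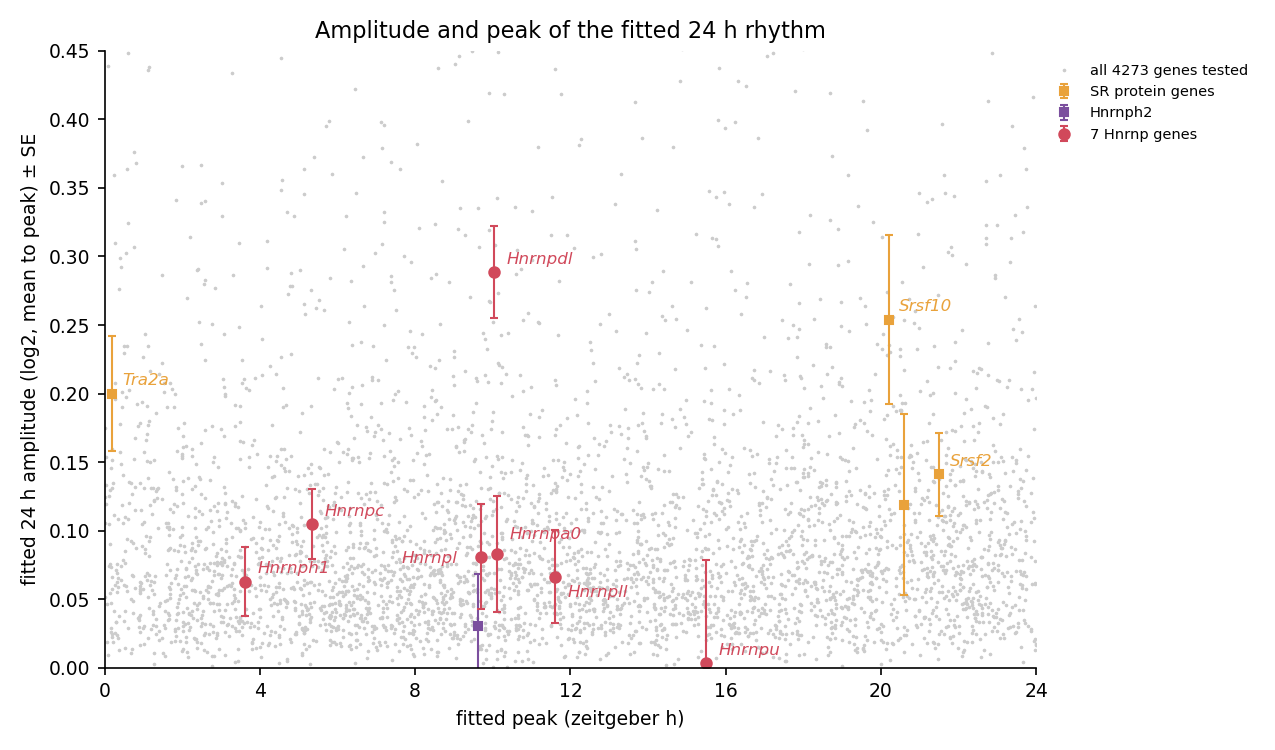
Fitted 24 h amplitude (y axis, log2 from mean to peak, with SE) against fitted peak (x axis, zeitgeber h) of the 7 Hnrnp genes (red), Hnrnph2 (purple), SR protein genes (orange) and all 4273 genes tested (grey, with some amplitudes beyond the top of the axis). Hnrnpdl at 0.29 stands above the other Hnrnp genes, whose amplitudes are 0.10 or less, and the called SR genes lie at ZT20.2, ZT21.5 and ZT0.177.

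Among the genes whose 12 group means were most like those of Hnrnpdl were the pseudogene Sms-ps (r = 0.875 over 12 groups), Zfyve28 (0.866) and Nrg3 (0.863). For Hnrnpc the most alike were Ppp1r11 (0.924), Lactb2 (0.882) and Hmgcs1 (0.877), an enzyme of cholesterol synthesis. For Hnrnpa0 they included BC005624 (0.879) and Slitrk1 (0.876), and for Hnrnph1 they were Zfp867 (0.797), Ttc4 (0.793) and Rfc5 (0.791). For Hnrnpl they were Sub1 (0.92), Calm2 (0.915) and Bloc1s5 (0.912), and for Hnrnpll Scamp1 (0.833), Sucla2 (0.826) and Nkiras1 (0.824). For Hnrnpu they were Nlgn1 (0.9), Myo9a (0.894) and Ptk2 (0.848). No other Hnrnp gene could appear in these lists by the rule, and their order moved between sets of libraries: without serial numbers 49 to 60 Sms-ps had rank 9 for Hnrnpdl, with r = 0.793, Zfyve28 rank 10 and Nrg3 rank 23.

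**Figure D5:**
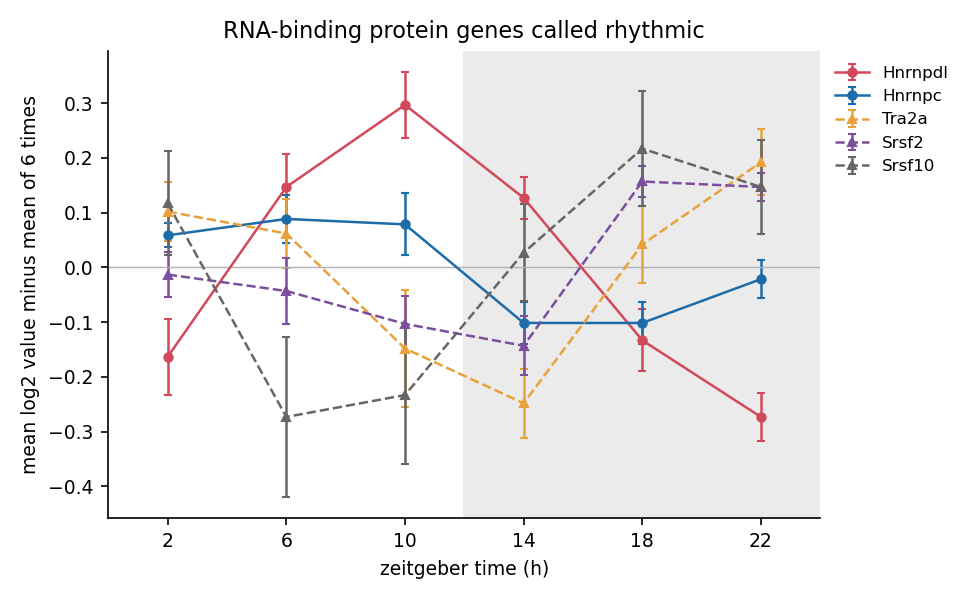
Mean log2 value minus the mean of the 6 times (y axis, bars are SE over 9 or 10 libraries) by zeitgeber time (x axis, h) for Hnrnpdl and Hnrnpc (solid lines) and the SR protein genes Tra2a, Srsf2 and Srsf10 (dashed lines). Hnrnpdl has its highest mean at ZT10, and Srsf2 and Srsf10 have theirs at ZT18.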

How the data were processed

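RNA was extracted with a Qiagen RNeasy Plus Micro kit and sequenced as stranded total RNA (Takara SMART kit), per the labels' protocols. FastQC, HTSeq, DESeq2 and the build GRCm38 are named without versions in the submitters' processing notes, and the aligner, annotation release and strand setting are not given in the sources used here. The deposited values are log2 of a scaled read count plus 1: undoing the log and removing the 1 left whole multiples of a fixed step per library, and dividing by it gave whole reads (largest deviation 3.6e-06 for values up to 1000 reads). The file's name speaks of raw counts.

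The members and all gene lists were chosen with earlier results of these data known. Groups came from the titles, and replicates are runs of 12 serial numbers (54 is absent). Whether each library is a separate mouse is not stated, so p-values measure the spread between libraries. The 4273 genes that reached 10 recovered reads in 4 or more libraries were fitted with limma 3.58.1 in R 4.3.3 (intensity trend, robust fit) on the deposited log2 values, with Benjamini-Hochberg adjustment over all 4273 and a threshold of 0.05. The 24 h rhythm was the joint test of cosine and sine terms with sex as a covariate. The sex difference was fitted with time as a factor, the difference of rhythm with sex by cosine and sine terms, and the 12 h rhythm by adding 12 h terms. These fits were tested on simulated data. Group deviations were correlated with 100000 permutations within groups in Python 3.11.15 with SciPy 1.17.1, and near-identical copies were sought with BLAST 2.17.0. All members were named. The other named genes were the 5 (Hnrnpdl) or 3 (other members) genes with the highest correlation of group means, predicted genes passed over, and every called gene of each list, or its smallest p where none was called, and some genes and lists that this rule selects are not reported here. Positions are from GENCODE release M21. Alternatives were a replicate block, other scalings, voom, principal components, filters, a pseudocount of 10, time as a factor and leaving out libraries.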

Additional observations from a re-analysis of the deposited data

Results flagged for a closer look

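In 3 of 84 groups of a member by time and sex, 1 library lay far from the rest of its group, and chance flags about 1 in 20 groups. Hnrnpll was at 10.55 (log2) in replicate 3 of the ZT2 males, against 10.23 to 10.32 in the other libraries of the group. Hnrnpu was at 11.33 in replicate 4 of the ZT6 males, against 9.85 to 9.98. Hnrnpu was also at 10.67 in replicate 1 of the ZT22 males, against 9.79 to 9.98. All 3 libraries lay above their groups, and Hnrnpdl in the same libraries was at 10.59, 10.65 and 10.43.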

How the results depend on the processing

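The rhythm of Hnrnpdl kept its peak between ZT9.91 and ZT10.2 and its amplitude between 0.253 and 0.292 under 11 alternatives, and that of Hnrnpc between 0.0986 and 0.107. Members called numbered 2, and 3 with the first 2 principal components, 1 without serial numbers 49 to 60, with totals that leave out the noncoding genes or with time as a factor, and 0 with library totals. With library totals, which moved the median of all genes by up to 0.107 at a time, 3 genes were called rhythmic in place of 81 and 0 genes differed by sex. Genes called rhythmic numbered 50 without serial numbers 49 to 60, 45 with time as a factor and 359 with the first 2 principal components, where 720 genes were called for a difference of rhythm and 962 for a 12 h rhythm. Those components were taken from deviations within groups and shrink the residual variance by construction. Genes differing by sex numbered 2, in place of 1, with those components, with the noncoding share as a covariate and with the replicate block. The main fits did not take the serial run as a block, although libraries of a run were more alike. Of 319 same-run pairs 148 had an r of deviations over 0.1. The mean r was 0.107 in same-run pairs and -0.0264 in 1280 other pairs. With the replicate block 2.67% of the genes tested were called rhythmic in place of 1.90%, and 2 members as without it. Leaving out 1 library gave 74 to 96 rhythmic genes, 1 gene by sex and 1 to 2 members. The Hnrnpc call ended without replicate 1 of the ZT6 males, replicates 1 or 2 of the ZT6 females, replicate 5 of the ZT14 or ZT18 males, or replicates 1, 3, 4 or 5 of the ZT18 females, each leaving 1 member called. Male minus female differences near 0 changed sign for Hnrnph1 (-0.00299 without serial numbers 49 to 60, -0.00627 to 0.0153 leaving out 1 library), Hnrnpdl (0.00542 with library totals, -0.029 to 0.00191) and Hnrnpl (-0.00643 to 0.0259). Tra2a, Srsf2 and Srsf10 were not called with library totals, and the Srsf10 call also ended in 11 of 59 fits without 1 library: replicates 3 or 5 of the ZT6 males, 3 or 5 of the ZT6 females, 1, 4 or 5 of the ZT10 males, 3 or 4 of the ZT18 males, 1 of the ZT22 males or 2 of the ZT22 females. Smg6 was called with the replicate block, with totals without the noncoding genes and with principal components, and in 2 of 59 fits without 1 library. The lists of most alike genes shared 0 to 2 genes with those above under other settings. The cause of these changes was not tested, other than by construction for the principal components. Hnrnpu had the fewest reads of the members (median 363 a library), and the part of read number in its spread was not tested.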
